A study of Homo sapiens with 12 samples.

Results

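The genes that encode the proteins of the cytosolic ribosome were followed in 12 RNA-seq libraries of YT cells, a human line derived from a natural killer (NK) cell-like leukaemia that does not express CD16a. The members were all genes whose symbol begins with RPL or RPS and a number, together with RPSA, RPLP0, RPLP1, RPLP2 and FAU. Kinases of the RPS6K family (10 genes), RPS4Y genes (2 genes) and read-through genes with a hyphen (3 genes) were left out, as were pseudogenes, of which RPSAP58 is listed and has no number after its first 3 letters. The rule took 87 of the 17589 genes in the table and used no measured value. Of these, 78 encode the core proteins (46 of the large and 32 of the small subunit), 8 are paralog copies with an L or L1 suffix, and RPS19BP1 encodes a protein that binds RPS19. After the filter on low counts 86 of the 87 remained among the 13657 genes tested, and RPL10L, at or below 1.09 TPM (a transcript level scaled to length and library size) in every library, was not tested.

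All cells had been transduced with a lentivirus that drives its insert from the hEF1A promoter, then sorted as a bulk population by eGFP and expanded, and none was stimulated. The 4 groups held 3 libraries each. CTRL cells carried eGFP alone, hnCD16 cells a high-affinity, non-cleavable form of CD16a (the Fc receptor through which NK cells recognise antibody-coated targets), FR1 cells the fusion hnCD16-2B4-DAP10-CD3ζ and FR2 cells the fusion hnCD16-DAP10-CD3ζ. Each group was 1 sorted population of 1 line, and the labels do not state that replicates were separate cultures, so the p-values measure only the spread between these samples, which may be technical.

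Each cytosolic ribosome joins a small subunit, which reads the messenger RNA, to a large subunit, which forms the peptide bonds, and nearly every ribosomal protein is present in a single copy per particle. An exception is the stalk of the large subunit, where P0 anchors copies of P1 and P2 that recruit elongation factors. Messenger RNAs of this family usually begin with a run of pyrimidines, the 5′ terminal oligopyrimidine (TOP) motif, through which growth signals control their translation. Several members have a second, diverged gene copy whose product can take the place of the main protein. Lymphocytes raise ribosome production when they are activated and divide.

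Library totals were 17714566 to 18729019 counts. Markers were checked against the NK-like label before the ribosomal proteins were compared. Of 11 NK cell genes, 9 reached 1 CPM (a count scaled to library size) in all 6 FR1 and FR2 libraries but only 4 did so in all 6 CTRL and hnCD16 libraries, and their summed level was 3927 to 4271 CPM against 35.1 to 42.2 CPM. GZMB, which encodes the granule protease granzyme B, was at 0.544 to 0.903 CPM in CTRL and hnCD16 and at 2493 to 2844 CPM in FR1 and FR2. It was the highest of the NK genes there, and the list did not move as one. NCR3 went the other way, at 5.225 to 5.712 CPM in CTRL and hnCD16 and 0 to 0.971 CPM in FR1 and FR2. KLRD1 overlapped, at 10.66 to 13.29 CPM and 13.02 to 16.13 CPM in the same order. EOMES was present on both sides, at 6.11 to 10.47 CPM and 15.88 to 20.71 CPM. Of 8 T cell genes, 6 reached 1 CPM in all CTRL and hnCD16 libraries and 1 in all FR1 and FR2 libraries, with summed levels of 669.9 to 809 CPM against 36.3 to 43.1 CPM. Of 4 B cell genes, 2 and 1 reached that level, at summed levels of 9.19 to 14.7 CPM and 38.3 to 47.4 CPM, and of 5 myeloid genes 1 and 3, at 2.85 to 4.13 CPM and 5.67 to 10.3 CPM. TYROBP of the NK list and MPO of the myeloid list had no count in any FR1 or FR2 library. The libraries labelled CTRL and hnCD16 therefore lacked most defining NK markers, and in every comparison across this divide the receptor and the other differences between the cells cannot be told apart. Bulk libraries also do not separate fewer cells of a type from less RNA per cell.

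Sequences at the annotated starts are shown for 8 members that recur below, since a TOP run is the family's shared feature at the messenger's first base. Each window holds 30 bases, 15 before and 15 from the RefSeq start on, on build GRCh38.p14, and capitals mark the uninterrupted pyrimidines (C or T) from the first base of the transcript.
RPS27, chr1:153990747-153990776, plus strand: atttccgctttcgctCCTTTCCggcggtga
RPLP1, chr15:69452803-69452832, plus strand: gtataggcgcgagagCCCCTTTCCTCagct
RPL22, chr1:6199581-6199610, minus strand: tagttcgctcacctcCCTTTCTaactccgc
RPL7A, chr9:133348203-133348232, plus strand: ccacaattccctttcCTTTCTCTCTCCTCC
RPL22L1, chr3:170870181-170870210, minus strand: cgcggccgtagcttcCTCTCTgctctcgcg
RPL10, chrX:154398050-154398079, plus strand: tttttccactctcagaaatatacgtctgtc
RPS27L, chr15:63157463-63157492, minus strand: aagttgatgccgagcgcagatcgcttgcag
RPL7L1, chr6:42879601-42879630, plus strand: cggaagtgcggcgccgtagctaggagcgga
RPS27, RPLP1 and RPL22, which were higher in FR1 and FR2, and RPL7A and RPL22L1, which were lower there, all began with such a run, and RPL10, RPS27L and RPL7L1 did not at the annotated base. A C followed by at least 4 further pyrimidines stood at the start of 44 of the 69 members with a start in the table (63.8%) and of 4.04% of all 27305 starts. Among the starts of the 11135 tested genes with one, the share was 5.41%. From 250 bases before to 50 after the start, on either strand, CCGGAAG, the core of an ETS-type site, was in 33.3% of members' windows against 18.8% for tested genes. The letters GCCATNTTG, part of the YY1 site, were in 4.35% of members' windows against 4.99%. These matches describe letters only, and a missing match says nothing about a factor.

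Ribosomal protein messengers were among the most abundant in all 4 groups. Of the 20 genes with the highest mean TPM, which is scaled to transcript length, 15 were core members, as were 40 of the top 50 and 62 of the top 100. The median core member had a mean level of 3343 TPM. RPS18, a small-subunit protein, was highest at 12225 TPM and RPL14, a large-subunit protein, lowest at 299.5 TPM. All 87 genes together took 11.4% ± 0.396 of the counts in CTRL and 11.8% ± 0.549 in hnCD16, against 11.6% ± 0.220 in FR1 and 12.6% ± 0.283 in FR2 (SD, n = 3). FR2 libraries were above all FR1 and CTRL libraries in this share (exact permutation test, two-sided, p = 0.1 each, the smallest that 3 against 3 libraries allow), while FR1 and hnCD16 overlapped (exact permutation p = 0.8). Over the 7 comparisons no share differed after adjustment, the lowest adjusted p of the exact tests being 0.303.

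**Figure D1:**
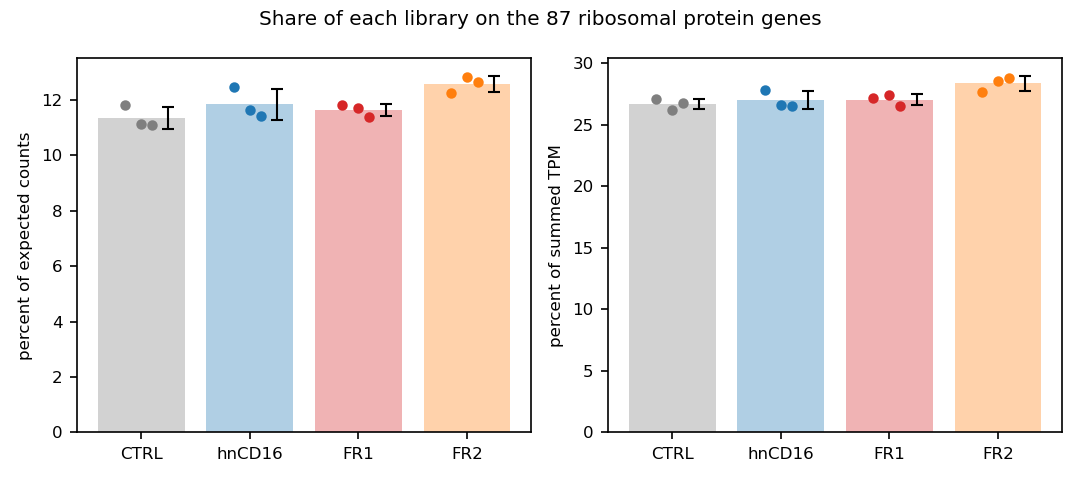
Percent of each library's counts (left) and of its summed TPM (right) on the 87 ribosomal protein genes, with points for libraries and bars for the mean and SD of 3 libraries per group. The counts share runs from 11.1% to 12.8%, and the FR2 libraries sit highest on average in both panels.

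In FR1 and FR2 against hnCD16 and CTRL, messengers for proteins of the same particle went opposite ways. This comparison holds the other differences between the cells as well as the fused signalling domains. All values are of RNA, and protein was not measured. RPS27, RPLP1, RPL10 and RPL22 were more than 2-fold higher, while RPL7A, RPS15A and RPL19 were among the members that fell. By edgeR's quasi-likelihood test at an adjusted p of 0.05, 46 of the 86 tested members were higher and 27 lower on the TMM scale (32 and 39 with upper quartile scaling), beside 84.2% of all tested genes called in either direction (40.9% higher and 43.3% lower). At that threshold together with a 2-fold change, 5 members were called (5.81% of members), all higher, whereas 37.9% of all tested genes were (18.5% higher and 19.5% lower).

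The balance of higher against lower members depended on the scaling. The SE of a member's log2 fold change was 0.034 to 0.22 (median 0.042). With TMM scaling the median core member was at a log2 fold change of 0.19 (all tested genes -0.03), and 46 rose against 27 that fell. Scaling by library size, by the upper quartile or through TPM in limma moved the median of all genes by -0.11, -0.15 and -0.08, the core median to 0.09, 0.05 and 0.06, and the counts to 41 higher against 36 lower, 32 against 39 and 39 against 39. Of all 13657 tested genes, 5045 were then higher against 6506 lower, 4817 against 6770 and 4841 against 6654, in the same order. Under all 7 scalings and tests, 32 members were called higher and 27 lower. A change of scaling factors shifts all members nearly alike and leaves their spread. The SD over the 78 core members was 0.45, 22 of them lay at least 0.5 from the core median, and the range ran over 2.296 on the log2 scale. Core members were less spread than genes at large, whose SD was 2.92. The quartiles were -0.13 and 0.34 for core members and -0.71 and 0.67 for all tested genes. In TPM, all FR1 and FR2 libraries were above all others for 25 members (29.1%) and below them for 30 (34.9%), beside 26.4% and 37.5% of all tested genes.

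**Figure D2:**
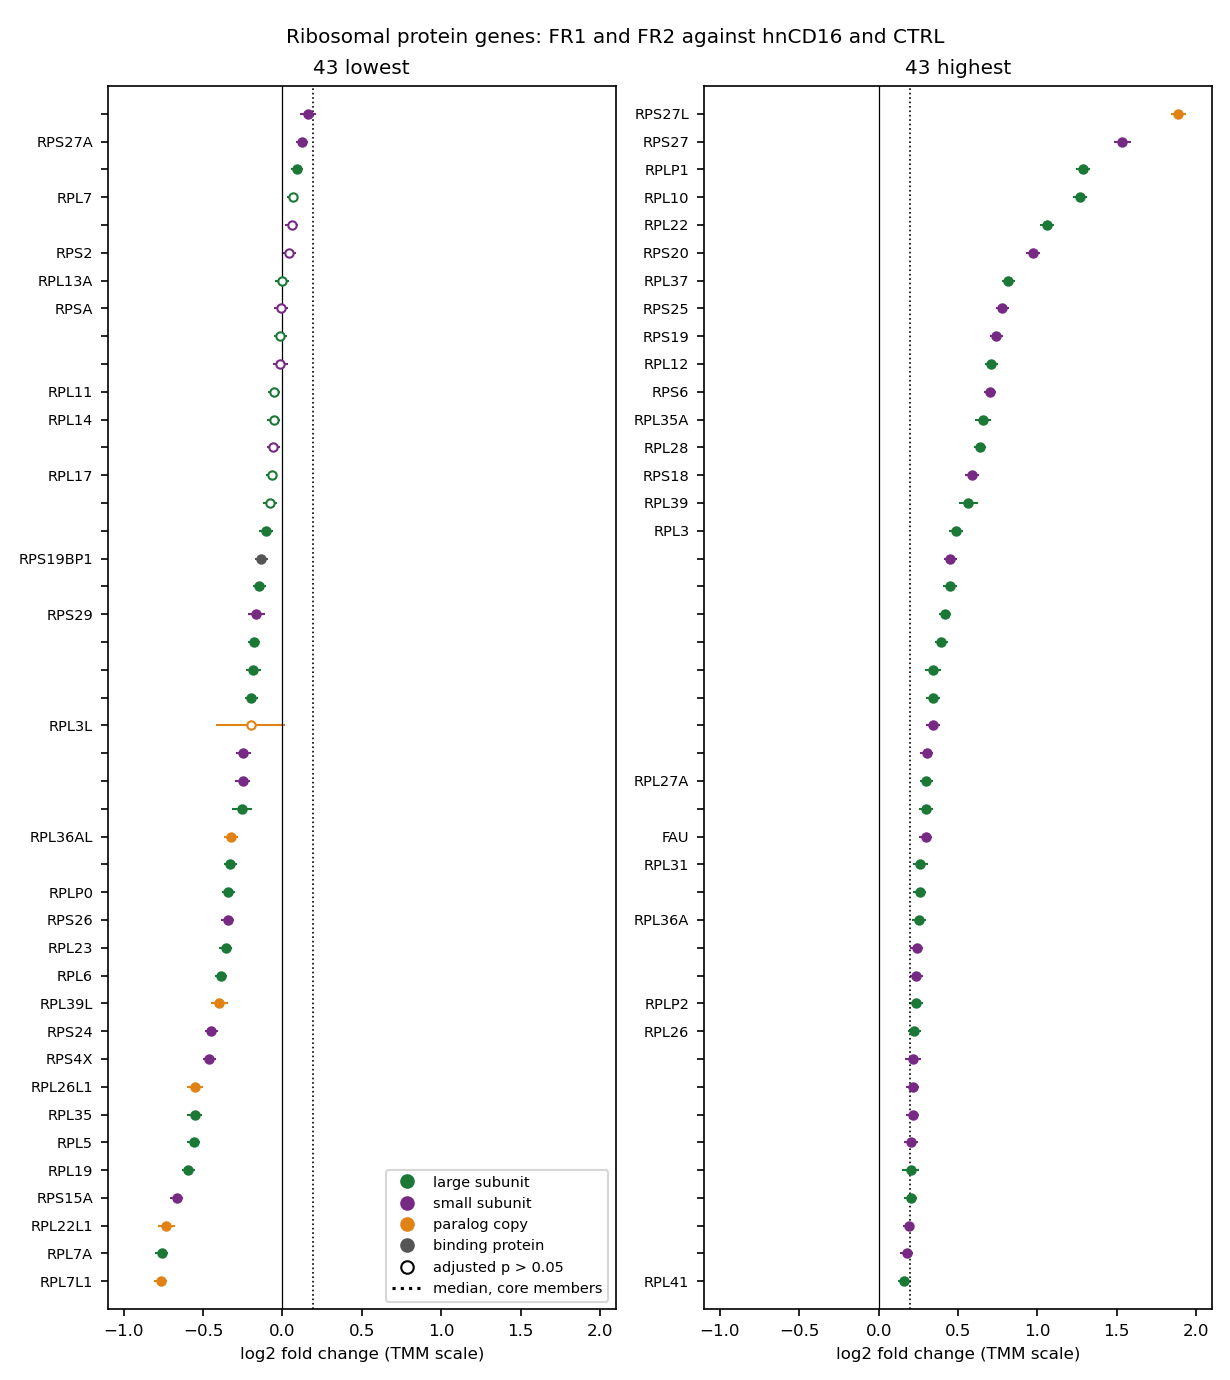
Log2 fold change of the 86 tested members, FR1 and FR2 against hnCD16 and CTRL on the TMM scale, split into the 43 lowest (left) and 43 highest (right); bars are 1 SE, filled points have an adjusted p of 0.05 or less, the dotted line is the median of the 78 core members, and symbols are given for members described in the text. Both subunits (green and purple) spread from the bottom to the top, with RPS27L at 1.89 and RPL7L1 at -0.77, and most paralog copies (orange) lie in the lower panel.

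The messenger of the small-subunit protein RPS27 (metallopanstimulin), a zinc-finger protein, showed the largest rise of any core member. RPS27 was at 5434, 5162 and 5939 TPM in the CTRL libraries, 5563, 5022 and 5100.2 in hnCD16, against 13575, 15095 and 13174 in FR1 and 13519.6, 14121 and 15432 in FR2. Every FR1 and FR2 library was above every CTRL and hnCD16 library (log2 fold change 1.54, SE 0.053, adjusted p = 6.93e-15). As a share of all core members' TPM, a measure free of scaling between libraries, RPS27 was 2.08% ± 0.137 in CTRL and 1.95% ± 0.0565 in hnCD16, against 5.18% ± 0.3096 in FR1 and 5.08% ± 0.256 in FR2.

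Of the messengers for the stalk of the large subunit, that of P1 rose, that of P2 rose slightly on the TMM scale and that of P0 fell. RPLP1, which encodes P1, was at 2659.6, 2754 and 2582 TPM in the CTRL libraries, 2804, 2750.2 and 2671 in hnCD16, against 5828, 5649 and 5442 in FR1 and 6334, 6648 and 6202 in FR2 (log2 fold change 1.29, SE 0.043, adjusted p = 5.65e-15). RPLP2, its partner P2, was at 3989.9 to 4219 TPM in CTRL and hnCD16 and 4124 to 4812 TPM in FR1 and FR2 (log2 fold change 0.24, adjusted p = 0.000101), with libraries that overlap, and this call was lost with upper quartile scaling. RPLP0, which encodes the P0 anchor and is often used as a reference gene, was at 7573, 7393 and 7192 TPM in the CTRL libraries, 7758, 7867 and 7559 in hnCD16, against 5603, 5376 and 5845 in FR1 and 5305, 5339 and 5179.6 in FR2 (log2 fold change -0.34, SE 0.04, adjusted p = 3.56e-07). The FR1 and FR2 libraries were all below the other 6 for RPLP0 and all above them for RPLP1, and neither call nor direction changed with the scaling.

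RPL10, which completes the large subunit late in its assembly, and RPL22, which is not needed for peptide bond formation and is known for a role in early T cell development, were the other core members past 2-fold. RPL10 was at 1582, 1521 and 1535 TPM in the CTRL libraries, 1606, 1416 and 1487 in hnCD16, against 3080.2, 3129.8 and 3210.1 in FR1 and 3586, 3588 and 3496 in FR2 (log2 fold change 1.27, SE 0.044, adjusted p = 7.44e-15). RPL22 was at 405, 396 and 405 TPM in the CTRL libraries, 446, 434 and 426 in hnCD16, against 766, 849 and 737 in FR1 and 775, 803 and 817 in FR2 (log2 fold change 1.06, SE 0.044, adjusted p = 1.15e-13). Neither gene overlapped between FR and other libraries. RPS20, a small-subunit head protein, reached 2-fold only against CTRL, at 3356 to 3658 TPM in CTRL and hnCD16 and 5767 to 6686 TPM in FR1 and FR2 (log2 fold change 0.97, SE 0.044, adjusted p = 4.3e-13).

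**Figure D3:**
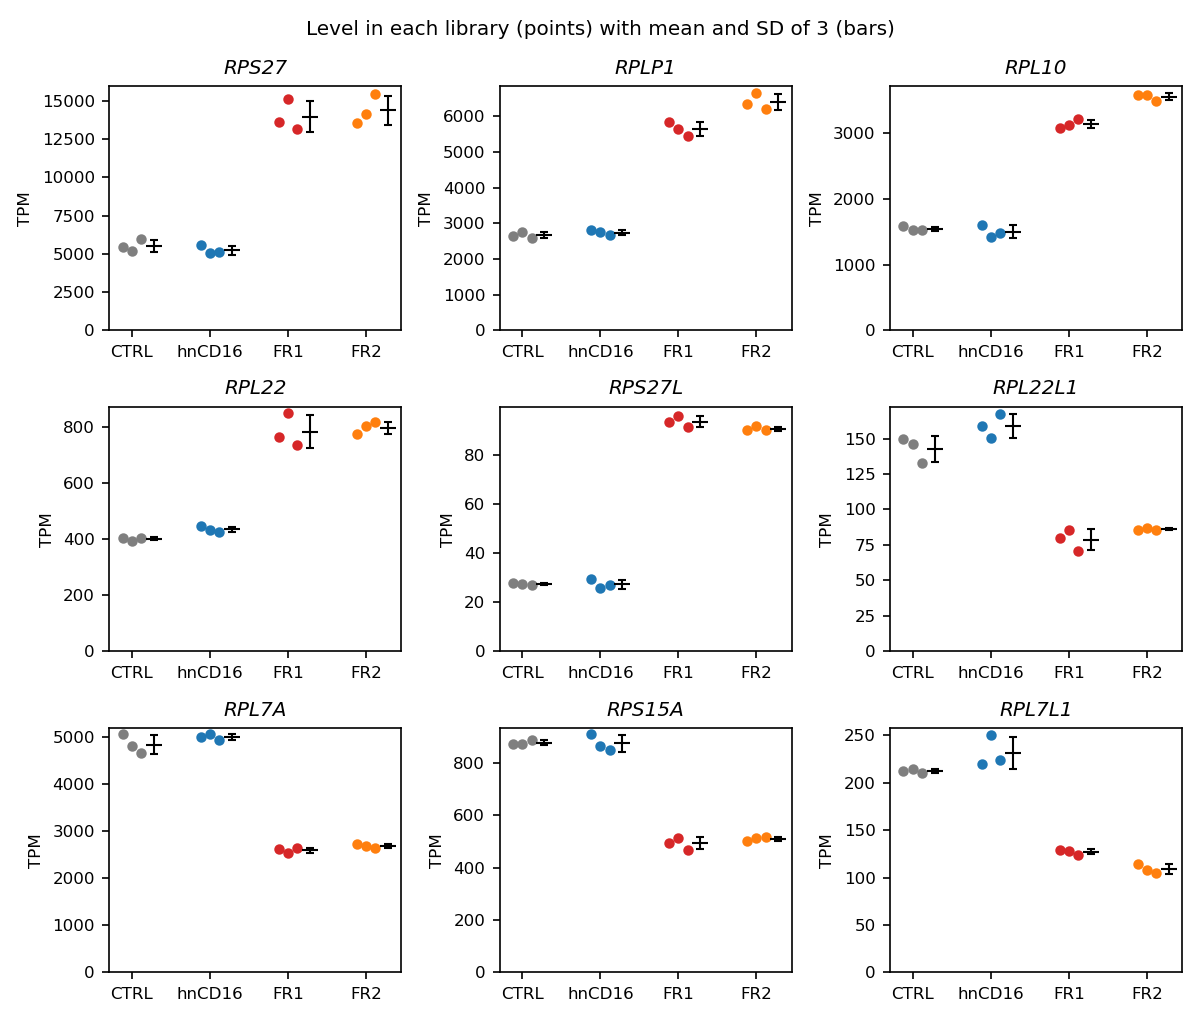
TPM in each library (points, 3 per group) with mean and SD (bars) for 9 members, each on its own linear axis from 0. RPS27, RPLP1, RPL10, RPL22 and RPS27L lie higher in all 6 FR libraries than in any of the others, and RPL22L1, RPL7A, RPS15A and RPL7L1 lie lower in all 6.

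Further members rose below the 2-fold limit. RPL37 was at a log2 fold change of 0.82, RPS25, a protein that viral internal entry sites need, at 0.78, and RPS19, the protein most often mutated in Diamond-Blackfan anaemia, at 0.74 (adjusted p = 2e-12, 4.39e-12 and 8.49e-12). RPS6, the target of the S6 kinases downstream of mTOR, was at 2313 to 2551 TPM in CTRL and hnCD16 and 3545 to 3753 TPM in FR1 and FR2 (log2 fold change 0.70, SE 0.041, adjusted p = 1.74e-11). RPL12, RPL35A and RPL28 were at 0.71, 0.66 and 0.64, and RPS18, RPL39 and RPL3, the last a part of the peptidyl transferase centre, at 0.59, 0.57 and 0.49, all with edgeR adjusted p of 0.05 or less. RPL37, RPL39 and RPL35A belong to the large subunit, and RPS18 and RPS19 to the head of the small subunit. RPL41, the smallest of the family and among the 3 most abundant, was at 8869 to 9712 TPM and 8287 to 10792 TPM (log2 fold change 0.16, adjusted p = 0.00202), a call lost with library size, upper quartile or TPM scaling, and RPL27A was at 0.30.

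On the TMM scale, of the large-subunit members 25 rose and 14 fell (n = 46, median log2 fold change 0.18), and of the small-subunit members 20 rose and 7 fell (n = 32, median 0.20). Beside them, 40.9% of all tested genes were higher and 43.3% lower. RPL7A, a large-subunit protein, was the core member that fell furthest. RPL7A was at 5068, 4814 and 4659 TPM in the CTRL libraries, 4999, 5074 and 4942 in hnCD16, against 2618, 2534 and 2642 in FR1 and 2733, 2685 and 2653 in FR2 (log2 fold change -0.76, SE 0.041, adjusted p = 4.75e-12). RPS15A, a protein of the small subunit's body, was at 871, 872 and 886 TPM in the CTRL libraries, 910.5, 864 and 848 in hnCD16, against 495, 513 and 468 in FR1 and 500.4, 512 and 516 in FR2 (log2 fold change -0.67, SE 0.041, adjusted p = 3.24e-11). For both genes every FR1 and FR2 library was below every CTRL and hnCD16 library.

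RPL5 and RPL11 form, with the 5S ribosomal RNA, the particle that can bind MDM2 and so link ribosome assembly to p53. RPL5 was at 3835, 3588 and 3657 TPM in the CTRL libraries, 3932, 3878 and 3857 in hnCD16, against 2456, 2414 and 2339 in FR1 and 2259.6, 2259 and 2309.8 in FR2 (log2 fold change -0.56, SE 0.04, adjusted p = 3.09e-10). RPL11 was at 4298 to 4628 TPM and 3764 to 4057 TPM and did not pass the test (log2 fold change -0.05, adjusted p = 0.201), though it was called lower when scaled by library size, upper quartile or TPM. The difference between RPL5 and RPL11 was not tested. RPL23, another MDM2-binding protein, fell by 0.36 on the log2 scale (SE 0.041, adjusted p = 2.28e-07).

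RPS4X, the X-linked copy of the RPS4 protein, was at 3194 to 3398 TPM in CTRL and hnCD16 and 2150.0 to 2226 TPM in FR1 and FR2 (log2 fold change -0.46, SE 0.039, adjusted p = 4.31e-09). RPL19 and RPL35, both of the large subunit near the exit tunnel or between the subunits, were at log2 fold changes of -0.59 and -0.55, RPL6 at -0.39, and RPS24 and RPS26, which are both Diamond-Blackfan genes, at -0.45 and -0.34 (edgeR adjusted p = 1.82e-10, 2.45e-09, 4.76e-08, 1.83e-08 and 1.99e-07). All of these were called lower under every scaling. As a share of core TPM, RPS24 was at 2.81% ± 0.135 in CTRL and 2.77% ± 0.0625 in hnCD16, against 1.76% ± 0.00769 in FR1 and 1.84% ± 0.0819 in FR2.

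Some members encode proteins that also act outside the ribosome. RPS27A, a fusion of ubiquitin with a small-subunit protein, was at 3225 to 3379 TPM and 3212 to 3478 TPM, and its log2 fold change of 0.12 (adjusted p = 0.00782) turned to -0.03 with upper quartile scaling and -0.01 with TPM in limma. FAU, a fusion of a ubiquitin-like protein with the small-subunit protein eS30, was at a log2 fold change of 0.30 (adjusted p = 5.46e-06). RPSA, the ribosomal protein also known as the laminin receptor, was at -0.01 and did not pass (adjusted p = 0.884), but was called lower when scaled by library size, upper quartile or TPM. The RPS19 binding protein gene RPS19BP1, which is not part of the ribosome, was at -0.13 (SE 0.04, adjusted p = 0.00579).

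Of the 7 paralog copies tested, beside 84.2% of all tested genes called (40.9% higher and 43.3% lower), 1 rose, 5 fell and RPL3L, the muscle copy of RPL3, at or below 0.96 TPM in every library, did not pass. RPL22L1, the copy of RPL22, was at 149.8, 146 and 133 TPM in the CTRL libraries, 159, 150.4 and 167 in hnCD16, against 79.6, 85.6 and 71.1 in FR1 and 85.8, 86.7 and 85.6 in FR2 (log2 fold change -0.73, SE 0.054, adjusted p = 4.8e-10). RPL7L1, a relative of RPL7 that acts in large-subunit assembly, was at 212, 215 and 210.4 TPM in the CTRL libraries, 219, 250.3 and 224 in hnCD16, against 129, 128 and 124 in FR1 and 114, 108 and 105 in FR2 (log2 fold change -0.77, SE 0.041, adjusted p = 5.24e-12). RPL26L1, RPL39L and RPL36AL were at log2 fold changes of -0.55, -0.40 and -0.32. The exception was RPS27L, the copy of RPS27 and a known p53 target, at 27.9, 27.6 and 26.9 TPM in the CTRL libraries, 29.4, 25.7 and 27.04 in hnCD16, against 93.4, 96.2 and 91.5 in FR1 and 90.5, 91.8 and 90.2 in FR2 (log2 fold change 1.89, SE 0.045, adjusted p = 3.88e-17), the highest value of all 86 members.

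Ratios of a copy to its main gene within a library need no scaling between libraries. As a percentage of RPL22's TPM, RPL22L1 was at 35.5% ± 2.41 in CTRL and 36.5% ± 2.45 in hnCD16, against 10.04% ± 0.371 in FR1 and 10.8% ± 0.293 in FR2 (SD, n = 3), with library ranges of 32.8% to 39.3% in CTRL and hnCD16 and 9.65% to 11.1% in FR1 and FR2. The 2 ranges are far apart, as RPL22 rose and RPL22L1 fell. Of RPL39's TPM, RPL39L made 3.87% ± 0.354 in CTRL and 4.02% ± 0.192 in hnCD16, against 1.78% ± 0.157 in FR1 and 2.32% ± 0.154 in FR2. Of RPL7's, RPL7L1 made 6.68% ± 0.176 in CTRL and 6.76% ± 0.493 in hnCD16, against 3.87% ± 0.0681 in FR1 and 3.64% ± 0.256 in FR2. For RPL26L1 the percentage of RPL26 was 6.19% ± 0.225 in CTRL and 6.48% ± 0.0164 in hnCD16, against 4.06% ± 0.2399 in FR1 and 3.204% ± 0.1503 in FR2.

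RPL36AL, as a percentage of RPL36A, was at 39.01% ± 2.64 in CTRL and 43.2% ± 2.32 in hnCD16, against 28.2% ± 0.486 in FR1 and 26.8% ± 0.77 in FR2. RPS27L alone gained on its partner, from 0.454% to 0.534% of RPS27 in CTRL and hnCD16 to 0.585% to 0.695% in FR1 and FR2, though RPS27 itself rose. For these 6 pairs the FR libraries did not overlap with the others. In TPM, FR libraries were all above the others for 26.4% of all tested genes and all below for 37.5%. No such share was computed for ratios. Coding sequences of the copies were 55.2% (RPL7L1) to 94.8% (RPL39L) identical to those of their partners, and the longest run of identical bases was 67 for RPL39L, 63 for RPL36AL, 20 for RPS27L, 17 for RPL22L1 and 11 for RPL7L1. How reads that match both copies were divided is not stated, so the values of RPL39L and RPL36AL are the less certain ones, and the many processed pseudogenes of this family could also share reads.

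The 4 separate comparisons of a fusion receptor group with a control group share libraries, so their values are given side by side and not as independent results. FR1 against hnCD16 called 61 members (29 higher, 32 lower), beside 79.1% of all tested genes (39.1% higher and 40.0% lower). With the 2-fold limit it called 4, RPS27L, RPS27, RPL10 and RPLP1, all higher, beside 38.3% of all genes (18.7% higher and 19.6% lower). FR2 against hnCD16 called 68 members (37 higher, 31 lower), beside 80.1% (38.7% and 41.4%). It called 5 with the 2-fold limit, adding RPL7L1, which was lower, beside 39.5% (19.6% higher and 19.8% lower). Against CTRL, FR1 had 71 members called (49 higher, 22 lower), beside 79.9% (39.1% and 40.8%), and FR2 had 66 (49 higher, 17 lower), beside 80.2% (38.5% and 41.7%). In each, 6 members passed 2-fold, beside 38.0% of all genes for FR1 (18.3% higher and 19.8% lower) and 38.2% for FR2 (18.7% higher and 19.6% lower). These 6 were RPS27L, RPS27, RPLP1, RPL10, RPL22 and RPS20, all higher.

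RPS27 was at log2 fold changes of 1.48 for FR1 and 1.51 for FR2 against hnCD16, and 1.56 and 1.59 against CTRL. For RPL7A the same 4 values were -0.88, -0.84, -0.68 and -0.64. The core medians were 0.07 and 0.12 against hnCD16 and 0.24 and 0.31 against CTRL on the TMM scale. With library size, upper quartile and limma on log2(TPM + 1), FR1 against hnCD16 was at -0.01, -0.09 and 0.01, and FR2 against hnCD16 at 0.10, 0.005 and 0.06. FR1 against CTRL was at 0.05, 0.06 and 0.03 in the same order and FR2 against CTRL at 0.18, 0.17 and 0.10. Leaving out 1 library moved FR1 against hnCD16 over 0.04 to 0.12. The SD over core members was 0.45 for FR1 and 0.47 for FR2 against hnCD16 and 0.44 and 0.46 against CTRL. Over all tested genes it was 2.932 and 2.932 against hnCD16 and 2.944 and 2.937 against CTRL.

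The direction counts of these comparisons moved with the scaling as well. In FR1 against hnCD16, members were 25 higher against 38 lower with library size and 18 against 43 with upper quartile scaling. Of all 13657 tested genes, 4913 were higher against 5892 lower with library size and 4524 against 6356 with upper quartile scaling. FR2 against hnCD16 gave 40 against 33 with library size and turned to 26 against 37 with upper quartile scaling. All tested genes gave 5207 against 5735 and 4791 against 6213 there. FR1 against CTRL gave 31 higher against 33 lower with library size, and FR2 against CTRL gave 43 against 26 with library size, 42 against 26 with upper quartile scaling and 41 against 36 in limma on log2(TPM + 1). All tested genes gave 4415 against 6661 for FR1. For FR2 they gave 4646 against 6377, 4635 against 6405 and 4286 against 6730, in the same order. Under all 7 scalings and tests, 18 members were higher and 32 lower in FR1 against hnCD16, 26 and 31 in FR2 against hnCD16, 30 and 22 in FR1 against CTRL, and 41 and 17 in FR2 against CTRL.

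hnCD16 against CTRL set 1 sorted population with the receptor without added signalling domains beside 1 with eGFP alone. Core members moved little and together. On the TMM scale the median log2 fold change was 0.18 (0.07 with library size, 0.16 with upper quartile scaling and 0.03 in limma on log2(TPM + 1)), with values from -0.01 (RPS2) to 0.27 and an SD of 0.06, against an SD of 0.42 over all tested genes. On the TMM scale 57 of 86 members were called higher and none lower by edgeR's quasi-likelihood test, beside 43.0% of all genes called (21.6% higher and 21.4% lower), and no member passed 2-fold, beside 0.527% of all genes (0.212% higher and 0.315% lower). RPL22L1, RPL7L1 and RPL36AL were at 0.30, 0.27 and 0.27 (adjusted p = 0.00373, 0.0012 and 0.00223). All 3 calls were lost with limma on TPM. RPS29 and RPL23 were nearest to no change after RPS2, at 0.04 and 0.05, while RPS27 was at 0.08 and RPLP1 at 0.19. Several lists of partner genes, described below, leaned higher too on the TMM scale. Mitochondrial ribosomal protein genes were 52 higher and 3 lower of 78 (median 0.21). Translation factors were 11 and 3 of 18, assembly factors 17 and 8 of 32, and RNA polymerase I genes 8 and 3 of 14. Genes that control TOP translation and growth leaned lower, with 2 higher and 10 lower of 17.

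The count for hnCD16 depended on the scaling and on single libraries. It was 16 (15 higher, 1 lower) with library size, which moved the median of all genes by -0.11, 46 with upper quartile scaling and 10 (7 higher, 3 lower) in limma on log2(TPM + 1). Of all 13657 tested genes, 1503 were higher and 4154 lower with library size. All tested genes gave 2659 and 3192 with upper quartile scaling and 1052 and 4434 in that limma fit. The count of members was 28 without CTRL replicate 2, 26 without CTRL replicate 3 and 25 without hnCD16 replicate 1, and 6 members were called higher under all 7 scalings and tests. In TPM the group means of the members' summed share were 26.7% ± 0.420 in CTRL and 27.0% ± 0.741 in hnCD16.

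FR1 against FR2, which differ by the 2B4 domain, also left core members close together, with a median of -0.04, an SD of 0.09 and a range of -0.29 to 0.17 against an SD of 0.52 over all tested genes. Of the 86 members 14 were called, 4 higher and 10 lower in FR1, beside 36.2% of all tested genes (17.7% higher and 18.5% lower), and none passed 2-fold, beside 1.93% (0.439% higher and 1.49% lower). RPL39L, the copy of RPL39 known from testis and tumours, was at 72.9, 72.2 and 72.2 TPM in FR1 and 104, 108 and 105 TPM in FR2 (log2 fold change -0.54, SE 0.081, adjusted p = 7.65e-05). It was at 120.1 to 142 TPM in CTRL and hnCD16, so FR2 lay between FR1 and those libraries.

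RPL7L1 was at 129, 128 and 124 TPM in FR1 and 114, 108 and 105 TPM in FR2 (log2 fold change 0.24, SE 0.058, adjusted p = 0.00398). RPS19BP1 was also higher in FR1 (log2 fold change 0.30, SE 0.058, adjusted p = 0.000736), as were RPS26 at 0.17 and RPL7 at 0.14, both calls being lost with library size and upper quartile scaling. RPL13A, a protein also known from the GAIT complex, which silences messengers after interferon gamma, was at 4366, 3897 and 4277 TPM in FR1 and 5208, 5193 and 5005 TPM in FR2 (log2 fold change -0.29, SE 0.062, adjusted p = 0.00162). RPL41, RPL28, RPL12, RPL26, RPLP1 and RPL10 were lower in FR1, at log2 fold changes of -0.21 to -0.17. The count of 14 became 8 without FR1 replicate 2 and 9 without FR2 replicate 2, and 32 (2 higher, 30 lower) with library size scaling. With that scaling 1755 of all 13657 tested genes were higher and 3383 lower.

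Transcript forms of the same member were compared as shares of its TPM. Among 30 RefSeq transcripts of members with more than 1 measured form, 21 differed in their share of the gene's TPM between the 6 FR and the 6 other libraries (exact permutation test, two-sided, adjusted p of 0.05 or less), and 13 without either FR1 replicate 2 or FR2 replicate 2. Forms of the same gene mirror each other, as in RPLP0 (6.508 and -6.508 percentage points), so the 21 are not separate results. The matching share over transcripts of all genes was not computed. Of the TPM of RPL17, transcript NM_001035006 made up 78.03% ± 0.506 in CTRL and 77.9% ± 0.3302 in hnCD16, against 86.7% ± 0.566 in FR1 and 86.4% ± 0.358 in FR2. Its transcript NM_000985 made up 8.98% ± 0.201 in CTRL and 9.41% ± 0.342 in hnCD16, against 2.06% ± 0.201 in FR1 and 2.704% ± 0.0731 in FR2. RPLP0 transcript NM_053275 fell from 17.3% over the 6 CTRL and hnCD16 libraries to 10.8% over the 6 FR libraries (exact permutation p = 0.002165, the smallest 6 against 6 libraries allow, adjusted p = 0.004995).

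For 2 further members a minor form lost share. Of the TPM of RPS27A, transcript NM_001177413 made up 9.45% ± 0.4098 in CTRL and 10.03% ± 0.4101 in hnCD16, against 5.21% ± 0.612 in FR1 and 3.895% ± 0.257 in FR2. For RPL35A, transcript NM_001316311 was at 11.6% ± 0.424 in CTRL and 11.2% ± 0.383 in hnCD16, against 6.36% ± 0.247 in FR1 and 6.35% ± 0.281 in FR2. These shifts of 5 to 9 percentage points are between forms that share most of their bases, so the shares rest on how RSEM divided the reads. RPL31 transcript NM_000993 differed by -0.349 percentage points and did not pass (exact permutation test, adjusted p = 0.5216).

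Sequence features and position were set beside the fold change. In FR1 and FR2 against hnCD16 and CTRL, the 43 core members with a TOP run at the annotated start had a median log2 fold change of 0.21 (range -0.76 to 1.54) and the 20 without 0.02 (range -0.59 to 1.27). Across the 78 core members, which share libraries and are not independent, Spearman's rho with the fold change was -0.23 for coding length, -0.08 for mean TPM and 0.14 for the median fold change of the genes on the same chromosome, given as descriptions.

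Genes that work with the ribosomal proteins were grouped into lists, and each list is described by its edgeR calls in FR1 and FR2 against hnCD16 and CTRL on the TMM scale. In that comparison 40.9% of all tested genes were higher and 43.3% lower (84.2% called), and each list's counts are to be read beside these shares. RACK1, a scaffold on the small subunit that the symbol rule does not take, was higher, at a log2 fold change of 0.58. Of 18 translation factors whose messengers carry TOP starts, 11 were higher and 6 lower (median 0.18; 8 and 7 with upper quartile scaling). EIF2S3 and EIF3E, subunits of the initiation factors eIF2 and eIF3, were at 1.03 and 0.95. HNRNPA1, an RNA-binding protein, and NACA, a chaperone at the exit tunnel, were at -0.45 and -0.31.

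Genes of ribosome production differed between FR1 and FR2. Of 32 assembly factors 9 were higher and 18 lower with both FR groups combined (median -0.20), and none was higher but 6 were lower by 2-fold. Taken apart, FR2 had 6 higher and 24 lower against hnCD16 (median -0.42) and 7 and 20 against CTRL (median -0.32), where FR1 had 10 and 15 (median 0.0069) and 14 and 14 (median -0.00086), its medians turning to -0.07 and -0.19 with library size scaling. In FR1 against FR2 directly, 29 of the 32 were higher in FR1 and 0 lower (median 0.43), beside 17.7% and 18.5% of all tested genes, and with other scalings, tests and libraries left out 26 to 29 were higher and 0 lower. WDR12 and BYSL, which act in large- and small-subunit assembly, were at -1.51 and -1.44, while HEATR1 and NHP2 were at 0.96 and 0.61. Of 14 genes of RNA polymerase I, which makes ribosomal RNA, 3 were higher and 9 lower with both FR groups together (median -0.42), with TAF1A at -1.37 and POLR1C at -0.79 but TAF1C at 0.71 and TAF1D, which also hosts small nucleolar RNAs, at 0.66. The medians of this list were -0.13 and -0.18 for FR1 and -0.35 and -0.57 for FR2, against hnCD16 and CTRL, and in FR1 against FR2 directly 9 were higher in FR1 and 0 lower (median 0.35; 8 to 10 higher and 0 to 1 lower under the alternatives). Of 14 small nucleolar RNA host genes listed, only TAF1D and EIF4A2 (0.27) had values here. EIF4A2 was at 530 to 556 TPM in FR1. In FR2 it was at 433 to 469 TPM, which overlaps the 436 to 474 TPM of CTRL and hnCD16.

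Among 6 chaperones of single ribosomal proteins, 2 were higher and 4 lower (median -0.62). HEATR3, which carries RPL5 and RPL11 into the nucleus, was at 2.21, and TSR2, the chaperone of RPS26, at 0.18. BCCIP, a chaperone of RPL23, and PDCD2, a chaperone of RPS2, were at -1.08 and -0.90. Beside BCCIP and PDCD2, RPL23 was lower (log2 fold change -0.36) and RPS2 was at 0.04 and did not pass edgeR's test (adjusted p = 0.343), turning to -0.10 with upper quartile scaling. Beside HEATR3, RPL5 was lower at -0.56 and RPL11 was at -0.05 and did not pass. Beside TSR2, RPS26 was lower at -0.345.

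Of 17 genes that control TOP translation and growth 7 were higher and 9 lower (median -0.11). The S6 kinase genes RPS6KB2 and RPS6KB1 were at 0.76 and 0.75, beside their target RPS6 at 0.70. EIF4EBP1, the mTOR-regulated repressor of cap binding, had 1045 to 1272 counts per library in CTRL and hnCD16 and 0 to 3 in FR1 and FR2. MYCN had 46 to 72 against 0 to 1 counts. MYC, a transcription factor that drives ribosome production, was chosen after its values were seen and had 3803 to 5355 counts against 763 to 927 (log2 fold change -2.34).

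The mitochondrial ribosome is a separate particle with its own nuclear-encoded proteins. Of its 78 tested genes 14 were higher and 54 lower (median -0.32), against 46 higher and 27 lower of the cytosolic members on the same TMM scale (32 and 39 with upper quartile scaling), and with other scalings 10 to 11 were higher and 58 to 62 lower. In FR1 against FR2, 36 of the 78 were higher in FR1 and 1 lower (24 to 41 and 1 to 3 under the alternatives), beside 17.7% and 18.5% of all tested genes. MRPL45 and MRPS34 were at -1.66 and -1.63, and MRPL41 and MRPL24 at 1.001 and 0.92. TSR2 lost its call under some settings, and the values of MYC under them are not given here. Every other gene named in these lists kept its call under every setting tried.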

How the data were processed

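Total RNA from 12 libraries (4 groups of 3) was depleted of ribosomal RNA and sequenced by the authors; oligo(dT) beads are also named in the labels. Per the labels and the study's methods, the authors mapped reads to GRCh38.p13 with HISAT2 2.1.0 and Bowtie2 2.3.4.3 and quantified them with RSEM 1.3.1, and the deposited gene and transcript tables hold RSEM expected counts and TPM. Strand and the handling of reads that match several genes are not given in the sources used here. The authors' own test was DESeq2 1.4.5. Each table also holds 40 value columns that no label here matched, and these were not used.

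Expected counts were rounded and tested with edgeR 4.0.16 (R 4.3.3): TMM scaling, filterByExpr, quasi-likelihood F-test, 1 fit of all 12 libraries with no block, and Benjamini-Hochberg adjustment over the 13657 genes tested. Calls used an adjusted p of 0.05, alone or with a 2-fold change. TPM gave levels, ratios and transcript shares. For transcripts, exact permutation tests were adjusted over 30 forms with a mean of at least 5 TPM and at least 5% of the gene. Copies of a transcript on alternate loci were summed (10 for RPS9, 6 for RPS18). Members were named if past 2-fold in any comparison, among the 3 highest or lowest in any comparison or in mean TPM, in a paralog pair, in a fixed set of members of known roles, or not ribosomal proteins; of each partner list, the 2 called genes furthest from 0 in each direction were named. RPL6, RPL12, RPL17, RPL19, RPL28, RPL31, RPL35, RPL35A, RPS19 and RPS25 were named after their values were seen. Alternatives were limma 3.58.1 on log2 TPM with a pseudocount of 1 or 0.1, DESeq2 1.42.0, other scalings and filters, a replicate block and leaving out each library. Start sequences and coding sequences came from RefSeq and the GRCh38 annotation, compared with Biopython 1.88. Results for a few genes are not reported here. The test script was tested on simulated data. The members and lists were chosen with earlier results of these data known. Library totals of 17714566 to 18729019 counts set the precision, and intervals and SEs cover these libraries only.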

Additional observations from a re-analysis of the deposited data

How the results depend on the processing

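In FR1 and FR2 against hnCD16 and CTRL the main fit called 46 members higher and 27 lower. Of the 85 members tested in all 24 settings, 32 were called higher and 26 lower in every one. The 41 named members were partly named for their large changes, and 12 of the settings left out only 1 library, so few changes among them are of little weight. Of their 942 values under alternative settings, 901 kept direction and call, 12 lost the call, 20 gained one and 9 reversed. Both were kept throughout by 30 members. The reversed values were those of RPL7 (-0.083 with upper quartile scaling, -0.073 with limma), RPS2 (-0.104 and -0.093) and RPS27A (-0.027 and -0.006), with the same limma value for either pseudocount. The core median of FR1 against hnCD16 went from 0.07 to -0.007 with library size and to -0.09 with upper quartile scaling. For these the cause was not tested.

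The members called in hnCD16 against CTRL numbered 57, against 16 with library size scaling, 10 and 9 with limma on log2(TPM + 1) and log2(TPM + 0.1) and 28 with only the 2 groups fitted, and RPL23 there turned to -0.10 with limma at both pseudocounts. FR1 against FR2 gave 14, against 32, 29, 27 and 30 in the same order. In TPM the members' share of a library differed by 1.36 percentage points for FR2 against hnCD16, 1.68 for FR2 against CTRL and -1.31 for FR1 against FR2.

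Leaving out 1 library in turn gave 25 to 71 members called in hnCD16 against CTRL (25 without hnCD16 replicate 1, 26 and 28 without CTRL replicates 3 and 2), 8 to 17 in FR1 against FR2 (8 without FR1 replicate 2, 9 without FR2 replicate 2) and 13 to 21 transcript shares (13 without either of these 2 libraries). The joint comparison kept 72 to 74 members called, FR1 and FR2 against hnCD16 56 to 65 and 63 to 69, and against CTRL 66 to 70 and 64 to 68.

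Same-numbered libraries deviated together with r of -0.07 to 0.17, and differently numbered ones with r of -0.157 to 0.0594. Between CTRL and hnCD16 the same-numbered values were 0.0623 to 0.171 and the others -0.157 to -0.00535. Between FR1 and FR2 the same-numbered values were -0.0719 to -0.00311 and the others -0.0464 to 0.0594. Whether the numbers mark a step shared between groups was not tested. When replicate numbers entered as a replicate block, the calls were 64, 76, 74, 68, 68, 18 and 73 for FR1 and FR2 against hnCD16, FR1 and FR2 against CTRL, hnCD16 against CTRL, FR1 against FR2 and the joint comparison. Adding the counts of the listed pseudogene RPSAP58 to its parent gene left the number of members called at 73 in the joint comparison. This setting cannot speak for the other pseudogenes of the family. Read-through counts were added as an alternative chosen after seeing the data and gave 73 too. With 3 libraries a group, exact tests on shares cannot go below p = 0.1, and depth limits RPL3L and RPL10L only.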
